A study of Mus musculus with 21 samples.

Results

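Single-nucleotide variants (SNVs) of mouse embryonic stem cells (ESCs) kept with the MEK inhibitor PD0325901 were compared with those of ESCs kept with the GSK3 inhibitor CHIR99021 but without PD0325901. The members were chosen by medium: 4 libraries of the media 2iL and 2iL-F on the MEK inhibitor side, and 4 libraries of A2iL and LCDM on the other, out of 10 ESC lists and 21 samples in the series. These 8 lists held 7312 calls with the MEK inhibitor and 7238 without it, of 18125 ESC calls in all, at 4075 distinct sites of the 4358 in the 10 ESC lists. All 8 libraries came from cells of the strain written C57BL6X129S6F1, in serum-free N2B27 medium with LIF (1000 IU) and CHIR99021 (3 µM). 2iL added PD0325901 (1 µM) on feeder cells, and 2iL-F was the same medium without feeders. A2iL instead added the Src inhibitor CGP77675 (1.5 µM), and LCDM the agents written Dim and Mih (2 µM each), both on feeders. Each medium had 2 libraries, numbered 3 and 5, and the labels do not say what the numbers stand for. The medium with serum, SL, was on neither side of the comparison. It served to judge whether a call was private, that is, listed for 1 library but for no other of the 10 ESC libraries. Its calls and fractions are also given beside some named sites.

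The design sets limits on what the comparison isolates. PD0325901 was never removed on its own, so its absence cannot be told apart from the presence of CGP77675 or of Dim and Mih. Feeders were missing only from 2iL-F. Nothing in the labels says that libraries 3 and 5 came from separate cultures, so p-values measure the spread between libraries, which may be technical. The lists hold DNA variants and no expression values, so the ESC identity could not be checked against marker genes.

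MEK1 and MEK2 are kinases that phosphorylate ERK1 and ERK2 downstream of fibroblast growth factor and RAS signalling, and ERK activity moves mouse ESCs out of the naive state. GSK3 marks beta-catenin for destruction, and its inhibition by CHIR99021 relieves repression of the pluripotency network. PD0325901 with CHIR99021 forms the 2i medium, which is known for homogeneous naive cells and for loss of DNA methylation and of genomic stability on prolonged culture. Replacing the MEK inhibitor by a Src inhibitor is a known way to keep ESCs without that loss, and media of the LCDM type support cells of extended potency.

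Each list gave reads for the reference and the alternative base, base quality and depth at every call, against 1 MEF (embryonic fibroblast) control shared by all ESC lists. The median depth per library was 54 to 72 reads, and 96.1 to 98.8% of calls had a mean base quality of at least 30. A call rested on at least 2 alternative reads. No pair of calls on a chromosome of a list lay closer than 10 kb, so a site can be missing from a list because a neighbouring call was kept. Counts of absence are therefore given also for sites with no nearby call.

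The number of SNVs per library was close in the MEK inhibitor media and the other media. 2iL held 1810 and 1858 calls, 2iL-F 1816 and 1828, A2iL 1839 and 1821, and LCDM 1783 and 1795. The ranges overlapped, and the means were 1828 ± 21.4 (SD, n = 4) with the MEK inhibitor and 1810 ± 25.3 without it. The difference of 18.5 calls did not exceed the spread (exact two-sided permutation test over 70 splits, p = 0.314, adjusted p = 0.629).

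Private calls showed no higher number in the MEK inhibitor media. 2iL had 152 and 175, 2iL-F 134 and 135, A2iL 161 and 149, and LCDM 141 and 153. The highest and the lowest library were thus both on the MEK inhibitor side, the highest on feeders and the lowest without them. The means were 149 ± 19.2 (SD, n = 4) and 151 ± 8.33, a difference of -2 (exact permutation p = 0.83). At a base quality of at least 30 the same libraries held 147, 166, 121, 119, 146, 101, 133 and 145 private calls, and the difference was 7 (exact permutation p = 0.657). A2iL 5 lost 48 of its private calls at that quality, and each of the other 7 lost 5 to 16. Without the feeder-free medium the difference was 12.5 calls.

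**Figure D1:**
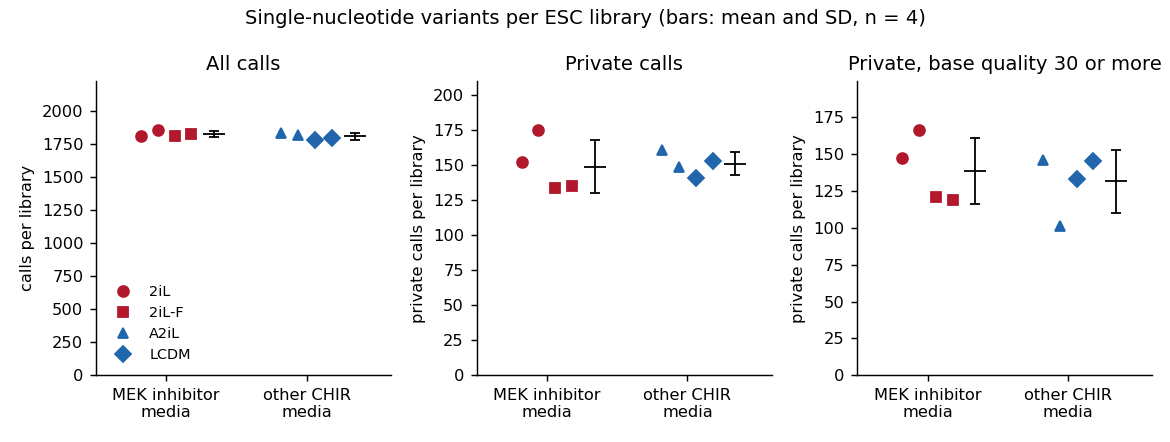
Calls per ESC library (left), private calls (middle) and private calls at base quality 30 or more (right), with each point a library, the symbol its medium, and the black bars the mean and SD of 4 libraries. The 2iL libraries hold 152 and 175 private calls and the 2iL-F libraries 134 and 135, and the A2iL and LCDM libraries lie between 141 and 161.

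Of 62 measures taken per library (counts, allele fractions, substitution classes, annotated regions, coding consequences, chromosomes), 0 (0.0%) passed an adjusted p of 0.05 in the exact permutation test. In 4 of the 62 (6.45%) the libraries with and without the MEK inhibitor did not overlap, which is the smallest p of the design, 0.0286, and the count at an unadjusted p under 0.05. These 4 were the 3′ UTR share of all calls, the chromosome 3 share of all calls, and the synonymous and protein-changing shares of private coding calls. The last pair are complements, so they count the same calls. The p-values were adjusted within families of 2 to 20 measures, and the adjusted p of these 4 ran from 0.0571 to 0.571. With a smallest p of 0.0286, most measures of a family had to separate together before any could pass. The 0 was thus largely set by the design and says little about any single measure.

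Substitution classes, folded by strand, differed little in all calls. C>T was the most frequent class, at 38.0 to 39.1% with the MEK inhibitor and 37.5 to 40.2% without it. C>T includes the change left by deamination of cytosine and 5-methylcytosine. Among private calls the C>T share was 44.7 and 34.3% in 2iL, 28.4 and 42.2% in 2iL-F, 32.3 and 29.5% in A2iL, and 29.1 and 35.3% in LCDM. 2iL-F alone spanned nearly the whole range. The mean difference was 5.85 percentage points (exact permutation p = 0.257, adjusted p = 0.44).

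C>A, the class to which oxidised guanine contributes, made up 9.87, 17.7, 19.4 and 14.1% of private calls with the MEK inhibitor and 13.0, 8.05, 14.2 and 12.4% without it. These overlapped (difference 3.34 points, exact permutation p = 0.229). T>G carried the widest gap of any class between libraries. It was 8.55, 10.9, 14.2 and 12.6% of private calls with the MEK inhibitor, and 15.5, 35.6, 14.9 and 9.15% without it. The high value was that of A2iL 5, with 53 private T>G calls at a median base quality of 16, of which 45 lay below 30. At a base quality of at least 30 the T>G share of A2iL 5 was 7.92%, and the highest was 14.3% in LCDM 3. The T>G difference was then -2.18 points (exact permutation p = 0.371), against -7.24 over all calls (p = 0.229).

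**Figure D2:**
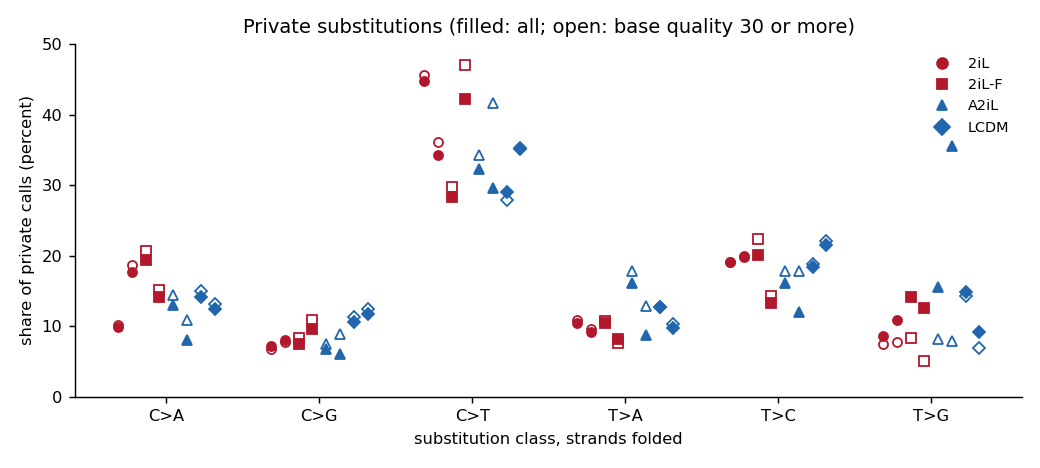
Share of private calls in each strand-folded substitution class, in percent, for each of the 8 libraries, with filled symbols for all private calls and open symbols for those at base quality 30 or more. The filled T>G symbol of A2iL 5 stands at 35.6% and its open one at 7.92%, and in the other classes the libraries with and without the MEK inhibitor overlap.

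By annotated region, intergenic calls (39.2 to 40.8% of a library with the MEK inhibitor, 39.4 to 40.7% without) and intronic calls (27.1 to 28.4 and 26.4 to 28.8%) led in both sets. The 3′ UTR share was 3.43 and 3.39% in 2iL, 3.52 and 3.28% in 2iL-F, 3.53 and 4.28% in A2iL, and 3.81 and 3.62% in LCDM. All 4 MEK inhibitor libraries lay below all 4 others, though 2iL-F 3 and A2iL 3 nearly touched. The difference was -0.41 points (exact permutation p = 0.0286, adjusted p = 0.229). At a base quality of at least 30 it was -0.35 points with the same p, and outside segmental duplications and repeats the libraries overlapped (exact permutation p = 0.229). The chromosome 3 share was 3.34 to 3.5% with the MEK inhibitor and 3.12 to 3.26% without it (exact permutation p = 0.0286, adjusted p = 0.571). The libraries overlapped in this share at a base quality of at least 30 (exact permutation p = 0.257) and with at least 20 reads (exact permutation p = 0.171).

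Coding calls changed the protein at similar rates over all calls, 52.1, 53.5, 53.1 and 52.9% with the MEK inhibitor and 50.9, 51.2, 52.2 and 53.5% without it. Among private coding calls the protein-changing share was 19 of 31 (61.3%) and 17 of 27 (63.0%) in 2iL, and 8 of 13 (61.5%) in each 2iL-F library. It was 8 of 16 (50%) and 4 of 10 (40%) in A2iL, and 12 of 20 and 9 of 15 (60% each) in LCDM. The 2 sets did not overlap, with LCDM just below the MEK inhibitor libraries and A2iL further below. The difference was 9.33 points (exact permutation p = 0.0286, adjusted p = 0.0571). The depth behind it is small: the 95% Wilson intervals, which cover counting error only, ran from 44.2 to 78.5% in 2iL 5 and from 16.8 to 68.7% in A2iL 5. Outside segmental duplications and repeats the difference was 3.95 points (p = 0.629 in the exact permutation test), so the ranges overlapped there.

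The number of private protein-changing calls separated 2iL rather than both MEK inhibitor media. It was 19 and 17 in 2iL, 8 and 8 in 2iL-F, 8 and 4 in A2iL, and 12 and 9 in LCDM. The difference was 4.75 calls (exact permutation p = 0.314), and 9.75 without the feeder-free medium (exact permutation over 15 splits, p = 0.0667, the smallest that design allows). Counting just those private calls for which no other list had anything within 10 kb, the numbers were 11 and 10 in 2iL, 6 and 3 in 2iL-F, 1 and 1 in A2iL, and 6 and 4 in LCDM. These counts were added after the data were seen.

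Allele fraction is the share of reads with the alternative base. Over all calls the library medians were 0.25 and 0.235 in 2iL, 0.264 and 0.255 in 2iL-F, 0.239 and 0.246 in A2iL, and 0.25 and 0.254 in LCDM, with no separation (exact permutation p = 0.629). Private calls had lower fractions, at 0.143 and 0.152 in 2iL, 0.193 and 0.16 in 2iL-F, 0.196 and 0.2 in A2iL, and 0.188 and 0.202 in LCDM. Of these, 3 of the MEK inhibitor libraries lay below every other library, and 2iL-F 3 lay among them. The means were 0.162 ± 0.0218 (SD, n = 4) and 0.197 ± 0.00619, a difference of -0.0345 (exact permutation p = 0.0571, adjusted p = 0.114). At a base quality of at least 30 the difference was -0.0334 (exact permutation p = 0.0857), and with at least 20 reads -0.0174 (p = 0.371 in the exact permutation test). Private calls below a fraction of 0.1 made up 36.2 and 37.1% in 2iL, 24.6 and 28.9% in 2iL-F, 22.4 and 25.5% in A2iL, and 33.3 and 29.4% in LCDM, so 2iL and LCDM were above 2iL-F and A2iL.

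The share of private calls in segmental duplications did not pass the adjusted threshold. At a base quality of at least 30 it was 43.5, 45.8, 39.7 and 47.1% with the MEK inhibitor, and 53.4, 57.4, 51.1 and 49.7% without it. The 2 sets did not overlap (difference -8.90 points, exact permutation p = 0.0286, adjusted p = 0.0571). In its family of 2 measures, separation of this share alone cannot give a lower adjusted p. Over all private calls A2iL 5 stood at 39.6% and the sets overlapped (difference -6.37, exact permutation p = 0.114). This measure was added after the data were seen.

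**Figure D3:**
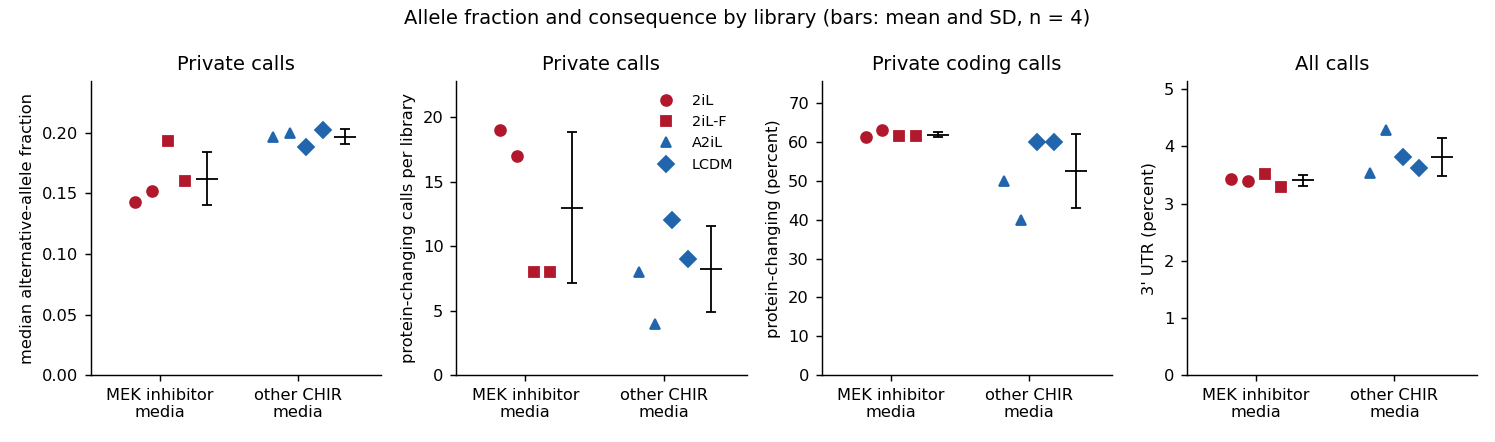
From left to right, the median alternative-allele fraction of private calls, the number of private protein-changing calls, the protein-changing share of private coding calls and the 3′ UTR share of all calls, with each point a library and the black bars the mean and SD of 4 libraries. The 2iL libraries (19 and 17) stand above the other 6 in the second panel, whereas the 2 panels on the right separate both MEK inhibitor media from the others by narrow margins.

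Sites found on a single side were about as many with the MEK inhibitor as without it. Of the 4075 sites, 884 (21.7%) were called in at least 1 MEK inhibitor library and in no A2iL or LCDM library, and 872 (21.4%) the other way round. In at least 2 libraries the numbers were 177 (4.34%) and 170 (4.17%), in at least 3 libraries 35 (0.859%) and 43 (1.06%), and in all 4 libraries 6 (0.147%) and 4 (0.0982%). In contrast, 680 sites were called in all 8. Requiring no call of the other side within 10 kb left 75 and 64 of the sites in at least 2 libraries, and 1 and 1 of those in all 4. Of the sites in at least 2 libraries, 108 of 177 with the MEK inhibitor were seen in both 2iL and 2iL-F, and 119 of 170 in both A2iL and LCDM. Of 384 protein-changing sites, 265 were on both sides, 72 with the MEK inhibitor alone and 47 without it, beside 884 and 872 of all sites. Private calls made up 52 of the 72 and 33 of the 47, and the 2iL libraries held 19 and 17 of the 52. Where no other-side call lay within 10 kb the numbers were 42 and 19, beside 456 and 424 of all sites. In at least 2 libraries of a side alone, protein-changing sites numbered 12 and 9, beside 177 and 170.

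**Figure D4:**
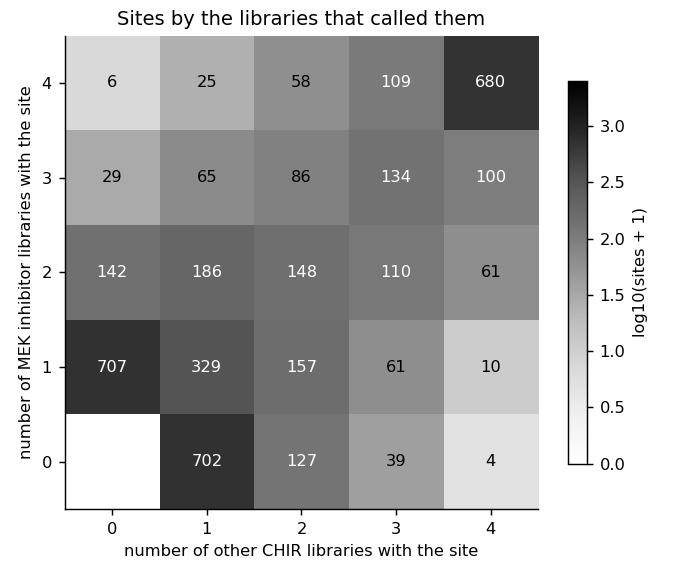
Number of sites by how many MEK inhibitor libraries (vertical) and how many A2iL and LCDM libraries (horizontal) called them, with grey shade as log10 of the number plus 1. The left column and the bottom row hold the sites of a single side, which fall from 707 and 702 in 1 library to 6 and 4 in all 4, and the top right cell holds the 680 sites of all 8 libraries.

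Libraries did not share more sites with the other medium of their own side. The Jaccard index, which divides the calls 2 lists share by all calls of either, averaged 0.477 over the 8 pairs within a side and 0.479 over the 16 pairs between sides (difference -0.00166, exact permutation of the media p = 0.667, where the smallest possible is 0.333). The mean was 0.477 for 2iL with 2iL-F and 0.478 for A2iL with LCDM. The highest mean of any 2 different media was 0.5, for 2iL-F with A2iL, and the lowest was 0.46, for 2iL with LCDM.

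Sites in promoters are shown with their sequence because these are windows where a variant could bear on a nearby gene. RefSeq windows of 250 bases before to 50 after a gene's start (build GRCm38.p6, the same assembly as mm10) held 84 of the sites, 19 of them on the MEK inhibitor side alone and 17 on the other alone. Among all 4075 sites, 884 (21.7%) and 872 (21.4%) were likewise on a single side. Of the sites in windows, 8 were called in at least 2 libraries of their side, 2 with the MEK inhibitor and 6 without it. All 8 lay in segmental duplications. Over all sites, 177 (4.34%) and 170 (4.17%) were called in this way, and the 8 are too few to compare the sides. The 4 windows below are 29 bases of the plus strand, 5′ to 3′, with the reference base at the variant in capitals. Gm5796 (chr14:4023847-4023875, a T>C change) and Gm9611 (chr14:42297362-42297390, C>T) are the MEK inhibitor sites. Prl2c3, a prolactin-family gene (chr13:12800245-12800273, T>C), and Vmn2r111, a vomeronasal receptor (chr17:22573338-22573366, C>A when folded by strand), come from the other media.
Gm5796: gggctgctggtgtaTcaccatcatcccca
Gm9611: aataccccacaagcCgctctggttaccac
Prl2c3: ttttttaggttcacTgatatagtcagttc
Vmn2r111: caggtaccaatataGccccatgtactatt
The Gm5796 change was read at fractions of 0.379 to 0.41 and that of Gm9611 at 0.051 to 0.07. Prl2c3 had 0.167 to 0.25 and Vmn2r111 0.27 to 0.341.

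Protein-changing SNVs in at least 2 MEK inhibitor libraries and no other ESC library numbered 9, of 105 sites of any kind under the same rule. Coordinates are those of mm10. Nsrp1, a splicing regulator, carried A196V in exon 6 (chromosome 11, position 77048380) in 4 of 70 and 4 of 52 reads of the 2iL libraries. Micall2, a regulator of endocytic recycling, carried G234R in exon 6 (chromosome 5, position 139716787) in 5 of 60 and 4 of 66 reads of the same libraries. Slc4a10, a sodium bicarbonate transporter, carried R30H in exon 2 (chromosome 2, position 62158246) in 8 of 63 and 11 of 85 reads of the 2iL-F libraries. Around these 3 sites the other ESC lists were empty for 10 kb to each side, and each came from a single medium at fractions of 0.057 to 0.129.

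Of the 9, 5 had a neighbouring call in other libraries. Ezh1, a histone H3 lysine methyltransferase of the Polycomb group, carried C310F in exon 9 (chromosome 11, position 101208133) in 9 of 19 reads of 2iL 3 and 12 of 31 of 2iL-F 5. The 8 other ESC libraries instead listed the synonymous C310C, 1 bp away, at fractions of 0.321 to 0.563. Ccnb2, cyclin B2, which acts at entry into mitosis, carried T294M in exon 7 (chromosome 9, position 70410215) in 6 of 36 and 4 of 57 reads of 2iL, and the 8 other libraries listed the synonymous C314C, 61 bp away. Vmn1r27, a vomeronasal receptor, carried C53F in 56 of 283 reads of 2iL 5 and 65 of 320 of 2iL-F 3, with V126I, 218 bp away, in the 8 other libraries. For these 3 genes a library listed a single one of 2 close variants, so the lists do not show that the other variant was absent.

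The remaining 3 lay in segmental duplications. H2-D1 and H2-L, histocompatibility genes, shared N280K at fractions of 0.028 and 0.031 (19 of 687 and 29 of 950 reads). Olfr1480, an olfactory receptor, had Y192H at 0.036 and 0.03 in the 2iL libraries, with no call of another list within 10 kb. Ugt1a10, a glucuronosyltransferase, had D87E at 0.059 and 0.089. Reads of near-identical copies may be split between genes here, which makes these calls uncertain.

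In A2iL and LCDM 5 such protein-changing sites were found, also of 105 sites of any kind. Nol8, a nucleolar protein, carried E464K in exon 7 (chromosome 13, position 49661807) in 19 of 77 and 22 of 67 reads of the LCDM libraries. Slc7a6os carried S263C in exon 4 (chromosome 8, position 106202236) in 36 of 134 and 33 of 136 reads of the same libraries. Arpp21, a cyclic-AMP-regulated phosphoprotein, carried T390M in exon 12 (chromosome 9, position 112127433) in 3 of 24 and 6 of 17 reads, again in LCDM. The other ESC lists were empty within 10 kb of these 3 as well, and their fractions, 0.125 to 0.353, lay mostly above those of Nsrp1, Micall2 and Slc4a10.

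Cdk4, the cyclin D kinase of the G1 phase, carried V51I in exon 2 (chromosome 10, position 127064386) in 25 of 103 reads of A2iL 3 and 23 of 77 of LCDM 5. The 8 other ESC libraries listed A23T of the same exon, 84 bp away, among them all 4 MEK inhibitor libraries at 0.307, 0.333, 0.2 and 0.269. Every library thus had 1 Cdk4 change and none had both, as the spacing of the lists requires. Mup19 and Gm2083 shared T113I in a segmental duplication, at 0.032 and 0.042.

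Of the 6 sites in all 4 MEK inhibitor libraries and no A2iL or LCDM library, 4 were intergenic and in segmental duplications. Hdac9, a histone deacetylase, had an intronic C>G change (chromosome 12, position 34290853) in 8 of 207, 21 of 258, 13 of 228 and 19 of 280 reads of the MEK inhibitor libraries. All 4 A2iL and LCDM libraries listed a C>A change 3 bp further (position 34290856) in 17 of 259, 18 of 228, 23 of 194 and 19 of 213 reads. The serum medium had 1 library with each. Whether each library also held the variant it did not list was not tested.

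Iws1, a transcription elongation factor, was the exception with no nearby call. Its intronic T>C change (chromosome 18, position 32084874) was read in 2 of 8, 2 of 5, 3 of 10 and 4 of 13 reads of the MEK inhibitor libraries and in both serum libraries. Mfap1a, a spliceosome component, showed the converse, an intronic T>C change (chromosome 2, position 121506241) in 3 of 16, 4 of 15, 3 of 12 and 3 of 14 reads of A2iL and LCDM and in both serum libraries. At these depths a site missing from a list was not shown to be absent from the cells. The Iws1 site also lay in a repeat and the Mfap1a site in a segmental duplication.

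Private protein-changing calls outside duplications and repeats are given by the 5 with most alternative reads on each side. With the MEK inhibitor these were Itln1 S221F (35 of 184 reads, 2iL 3), Las1l R287C (28 of 75, 2iL 5), Slc6a20a T175I (20 of 111, 2iL 3), BC003331 S120N (16 of 71, 2iL 3) and Elf1 E329G (7 of 86, 2iL 5). All 5 came from 2iL on feeders, and Slc6a20a, an amino acid transporter, was the only 1 of them with no call in another list within 10 kb. Las1l takes part in ribosome maturation, Itln1 is a lectin, and Elf1 is an ETS-family transcription factor.

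Without the MEK inhibitor they were Plcb1 K1172Q (20 of 93 reads, A2iL 3), Ptprh G231R (15 of 328, A2iL 5), Gpx6 Q217X (13 of 38, LCDM 3), Akap8l Y126S (6 of 24, A2iL 5) and Srsf5 R257X (5 of 60, A2iL 3). Plcb1 is a phospholipase C and Akap8l a nuclear anchoring protein. Both of their calls were T>G changes of low mean base quality, 15 and 17. Gpx6 belongs to the glutathione peroxidases and Srsf5 to the SR splicing factors. Their calls were stop-gain changes at base quality 36 and 37. All 9 other ESC lists had a call within 10 kb of the Ptprh site, the nearest being the synonymous G231G, 2 bp away. Of the other lists, 4 had one near the Srsf5 site, the nearest being S267R, 32 bp away. For Ptprh and Srsf5 the lists thus do not show that those libraries lacked the change. Plcb1, Gpx6 and Akap8l had no call of another list within 10 kb.

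Genes of the pathways on which the media act were looked at next. In a list of 43 MEK/ERK pathway genes, 3 sites were called, each in 1 library. Pdgfra, a receptor tyrosine kinase, had A530S in 4 of 89 reads of 2iL 5. Egfr, another, had an intronic change in 2iL 5, and Rps6ka2, a kinase activated by ERK, an intronic change in A2iL 5. None of the 21 Wnt/GSK3 genes held a site. Of 19 Src and focal adhesion genes, Ptk2 had a synonymous L113L in 2iL 5 and Yes1 an intronic change in A2iL 3. Over all genes, 1658 held a site, but the number of genes examined was not counted. No share over all genes can therefore stand beside these lists or those below, and the counts show neither excess nor lack. Beside these lists, 884 of all 4075 sites were on the MEK inhibitor side alone and 872 on the other.

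Pluripotency genes, 18 in number, held 4 sites, of which 3 were on both sides. Nanog, a homeodomain factor of the naive network, carried P72T in exon 2 (chromosome 6, position 122711600) in 7 of the 8 libraries, at 0.233 to 0.359. The 8th, 2iL 5, listed P61H, 32 bp away, in 7 of 21 reads. Stat3, the effector of LIF, and Dppa4 each had an intronic change in both 2iL-F libraries and A2iL 3, both in repeats. Dppa4 had 2 to 3 alternative reads at depths of 2 to 5, and Stat3 3 to 4 at depths of 19 to 39. Of 36 DNA repair and checkpoint genes, 4 held 5 sites, 3 on the MEK inhibitor side alone, 1 on the other and 1 on both. The 3 were intronic and each in 1 library: Atm (2 of 5 reads, 2iL-F 3), Parp1 (7 of 26, 2iL 3) and Wrn (4 of 37, in a repeat, 2iL-F 5). The other side had an intronic Wrn change in 1 library (3 of 15 reads, LCDM 3). Pold1 had the synonymous D287D on both sides.

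Of 23 cell cycle genes, 6 held 9 sites, 5 on both sides and 2 on each side alone. Mad2l1, a component of the spindle checkpoint, carried T176A in 47 of 135 reads of 2iL 3 and 38 of 90 of LCDM 5, and the synonymous A6A in the other 6 libraries, 4307 bp away. The libraries with T176A came from both sides. Dnmt3b, a de novo DNA methyltransferase, held the only site of 11 DNA methylation genes, K383R, in all 8 libraries at 0.168 to 0.261.

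Allele fraction was then compared site by site at the 657 sites called in all 8 libraries with at least 10 reads in each, where a missing call cannot make a difference. limma on the log2 odds of the alternative base (with 0.5 added to each count) called 0 sites (0.0%) at an adjusted p of 0.05, and 53 (8.07%) at an unadjusted p under 0.05. The lowest adjusted p was 0.327. Of the 657, 395 (60.1%) had a higher mean log2 odds with the MEK inhibitor, and the median log2 difference over all sites was 0.06, with quartiles of -0.10 and 0.25. All 4 MEK inhibitor libraries lay above all others at 16 sites (2.44%) and below at 10 (1.52%).

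The 5 exonic sites of lowest p, none of them called, show the size of these differences. Bid, a pro-apoptotic BH3-only protein, had the synonymous D59D at 0.5, 0.625, 0.667 and 0.619 with the MEK inhibitor and at 0.423, 0.4, 0.35 and 0.421 without it. The libraries did not overlap (log2 odds difference 1.15, SE 0.23, limma adjusted p = 0.327), and the serum libraries stood at 0.652 and 0.52. Ints5, a subunit of the Integrator complex, had L173R at 0.171, 0.241, 0.269 and 0.262 with the MEK inhibitor and 0.134, 0.089, 0.189 and 0.133 without it, overlapping in a segmental duplication. Tdpoz4 F121F was lower with the MEK inhibitor, at 0.069 to 0.087 against 0.098 to 0.124. Gm4736 N261S had 0.073 to 0.114 against 0.05 to 0.072, with a base quality of 27 in 2iL 5. Tdpoz4 and Gm4736 also lay in segmental duplications. Ints5, Tdpoz4 and Gm4736 each had a limma adjusted p of 0.462.

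Prdm16, a zinc-finger transcriptional regulator, had R874R at 0.556, 0.432, 0.5 and 0.453 with the MEK inhibitor, 0.386 and 0.422 in A2iL and 0.243 and 0.217 in LCDM (log2 odds difference 1.05, SE 0.32, limma adjusted p = 0.462). A2iL thus stood near the MEK inhibitor libraries and LCDM below, with the serum libraries between A2iL and LCDM at 0.296 and 0.367. Sites with a mean fraction difference over 0.18 were looked at in the same way, after their values were seen. Of 9 such sites, 5 had both LCDM libraries below the other 6. The exonic Aifm2 site (A287A) had 0.548, 0.481, 0.46 and 0.529 with the MEK inhibitor, 0.525 and 0.431 in A2iL and 0.185 and 0.121 in LCDM. Trim12a, a tripartite motif gene, had a 3′ UTR site in a segmental duplication at 0.909, 0.947, 1 and 1 with the MEK inhibitor, 1 and 0.783 in A2iL and 0.417 and 0.529 in LCDM. At Col7a1 and Nedd4l, both intronic, LCDM was again lowest, at 0.125 and 0.267 and at 0.154 and 0.196. The serum libraries had 0.322 and 0.377 at Aifm2 and 0.833 and 0.889 at Trim12a. They had 0.595 and 0.316 at Col7a1 and 0.463 and 0.377 at Nedd4l, in each case above LCDM. Of the 53 sites at an unadjusted p under 0.05, 21 had both LCDM libraries on one side of the other 6, against 5 for A2iL, 5 for 2iL and 13 for 2iL-F. Over all 657 sites the numbers were 64 (9.74%) for LCDM, 39 (5.94%) for A2iL, 51 (7.76%) for 2iL and 86 (13.1%) for 2iL-F. The 9 and the 53 sites were picked by these same fractions, so their counts cannot show that LCDM stands apart. Over all sites 2iL-F was the medium most often outside the others.

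Without the feeder-free medium, the same fit called 1 site, the synonymous L255L of Qsox1, a sulfhydryl oxidase (chromosome 1, position 155789431, exonic). Its alternative base was in 4 of 19 and 4 of 20 reads of 2iL (0.211 and 0.2), and at 0.583 and 0.472 in 2iL-F, 0.517 and 0.483 in A2iL and 0.545 and 0.476 in LCDM. The serum libraries stood at 0.407 and 0.367. 2iL on feeders was the lowest of all, and 2iL without feeders was among the highest. The log2 odds difference was -1.86 (SE 0.23, limma adjusted p = 0.0211) without 2iL-F and -0.87 (SE 0.48, limma adjusted p = 0.755) with it. The fit without 2iL-F took sites called in all 8 libraries with at least 10 reads in each library kept. Qsox1 was the only site called under any setting of the fit, and the p-values were not adjusted across settings. In 2iL its low fraction rests on 4 alternative reads per library.

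**Figure D5:**
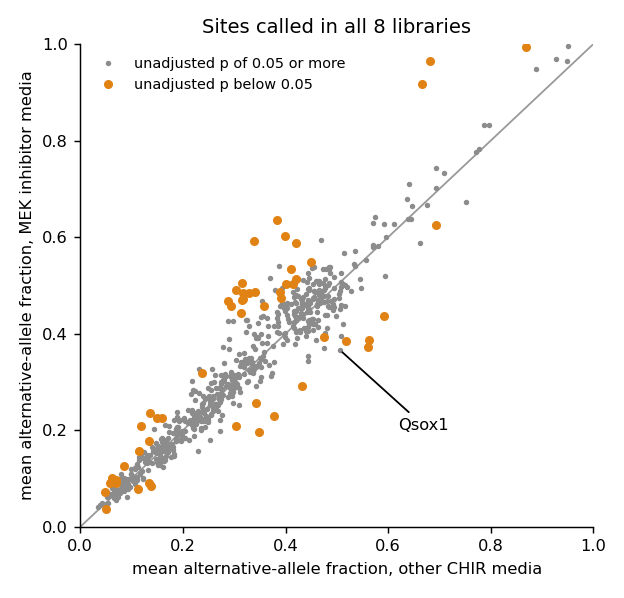
Mean alternative-allele fraction in the 4 MEK inhibitor libraries (vertical) against the 4 A2iL and LCDM libraries (horizontal) at the 657 sites called in all 8 libraries, with the diagonal marking equal fractions. The 53 sites with an unadjusted p under 0.05 are drawn in orange, 0 sites passed after adjustment, and Qsox1, called only without the feeder-free medium, is labelled.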

How the data were processed

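Per the labels, exomes were enriched by SureSelect capture. The submitters' processing notes name BWA, SAMtools, Picard and the build mm10, with no versions. Which program called the SNVs is not given in the sources. The deposited lists give, per the file headers, read counts per allele, the alternative-allele fraction and a base quality score. A call was keyed on its chromosome, position and both bases. Protein changes follow the first transcript listed. The members and lists were chosen with earlier results of these data known.

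The MEK inhibitor libraries were set against A2iL and LCDM by exact two-sided permutation of the difference of means (numpy 2.4.6, 70 splits). The p-values were adjusted by Benjamini-Hochberg within each of 9 families. Wilson intervals were computed with scipy 1.17.1. Allele fractions by site were fitted with limma 3.58.1 on log2 odds. Single sites were named by recurrence, alternative reads, lowest p or list membership. Promoter windows are RefSeq's. Scripts were tested on simulated data. Alternatives were base quality (30), depth (20 reads), alternative reads (5), unique sequence, control-free calls, spacing (10 kb), the replicate block, medium means, and leaving out 2iL-F or each library.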

Additional observations from a re-analysis of the deposited data

Results flagged for a closer look

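Of 140 groups of 4 libraries that were screened, 5 held a library far from the other 3 of its side by Dixon's ratio, where chance flags about 1 in 20 groups. All 5 were MEK inhibitor libraries. The T>C share of private calls was 13.3% in 2iL-F 5, against 19.1 to 20.1% in the other 3. The share of private calls in exons of non-coding RNA was 2.99% in 2iL-F 3 and 0 in the other 3. In 2iL 5 the synonymous share of private coding calls was 37.0% and its complement, the protein-changing share, 63.0%, against 61.3 to 61.5% in the other 3. The chromosome 7 share of all calls was 12.7% in 2iL 3, against 13.3% in each of the other 3.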

How the results depend on the processing

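The smallest possible exact permutation p was 0.0556 with the replicate block, 0.333 with medium means and 0.0667 without the feeder-free medium. No per-library measure could therefore pass an adjusted p of 0.05 in those settings. With 70 splits, most measures of a family had to separate together before any could pass. None passed under any alternative run. The sign of the difference in private calls turned under most of them: 7 at base quality 30, 0.25 at 20 reads, 0.25 at 5 alternative reads, 5.25 outside duplications and repeats, 2.5 with no alternative read in the control, 12.5 without the feeder-free medium, 2.75 with no call within 10 kb, 1.25 with privacy over the 8 libraries and 9.25 without T>G calls (added after the data were seen), with -10.67 to 3 on leaving out each library (3 without 2iL-F 3, 2.67 without 2iL-F 5, 1.33 without A2iL 3). The difference in median allele fraction, all calls, was -0.000875 at 20 reads, -0.00475 without the feeder-free medium and -0.000583 (without 2iL-F 3) to 0.00892 on leaving out each library. The sharing difference ran from -0.00566 to 0.00476, above 0 without 2iL-F 3, A2iL 3 or A2iL 5. Sites in at least 2 libraries of a side alone numbered 57 (MEK inhibitor) and 62 (other) outside duplications and repeats, 75 and 64 with no other-side call within 10 kb, and 91 to 260 and 103 to 232 on leaving out each library. Sites in all 4 libraries numbered 1 and 1 under the first of these, 1 and 1 under the second, and 8 to 15 and 6 to 8 on leaving out each library. Leaving out a library shortens the list required or the list to be absent from, by construction. The site fit called 1 site without the feeder-free medium and 0 under the other settings. The causes of the other changes were not tested.

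Differences in log2 odds between libraries 3 and 5 hardly moved together across media, with correlations of -0.111 to 0.0297 over 657 sites. Those sites were called in all 8 libraries, and whether the numbers pair the libraries in private calls was not tested. With the replicate block, over 36 splits, the private-call difference of -2 had an exact permutation p of 0.833, the limma fit called 0 sites, and no call changed. Depth limits the private coding shares, which rest on 10 to 31 calls a library.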
